A study of Mus musculus with 8 samples.

Results

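Interferon-stimulated effector genes are the genes that cells switch on under interferon to detect, tag and restrict viruses and other intruders. The set described here is a list of 48 such genes out of 55414 in the count table, chosen by name. The list leaves out the oligoadenylate synthetases (OAS), the GBP and IRG GTPases, and the STAT and IRF regulators, which are given further on as separate lists. The rule uses no measured value, but the list was drawn up with earlier results of these data known. Of the 48, 39 had enough counts to be tested and 9 did not, and all 48 are accounted for.

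The RNA came from FACS-sorted Paneth cells (PCs), which line the bottom of the small-intestinal crypts and secrete antimicrobial peptides, of C57BL/6J mice. One group of 4 mice drank Milli-Q water, a purified laboratory water, for 7 days. Another 4 mice drank water with 25 mM ZnSO4 over the same time. All 8 mice, controls included, then received TNF, an inflammatory cytokine, and cells were collected 3 hours later, as the labels have it, and no TNF-free group was analysed here. The libraries are called water 1 to 4 and zinc 1 to 4, and each is taken as 1 mouse. The labels give neither the age of the mice nor a batch. The comparison asks whether zinc in the drinking water goes with another level of these genes in PCs under TNF.

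Type I and type III interferons bind receptors at the cell surface, and the kinases attached to them, JAK1 and TYK2, pass the signal on. It ends in ISGF3, a complex with IRF9 that binds the interferon-stimulated response element (ISRE) in the promoters of its target genes. TNF acts mainly through NF-kB, and can raise many of the same genes through IRF1 or through interferon made in response to it. PCs sit beside the intestinal stem cells and are known for their antimicrobial granules.

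The promoters are shown first, because a shared motif is the sequence feature by which this gene family is usually recognised. The window from 250 bases before to 50 bases after the annotated start of each gene (GRCm39, GENCODE M39) was searched on both strands for GAAANNGAAA, a short form of the ISRE. On the other strand the same motif reads TTTCNNTTTC. It was found in 17 of the 48 members (35.4%), against 829 of 21627 promoters of protein-coding genes (3.83%). Among the 39 tested members 13 held it (33.3%), against 355 of 10365 promoters of tested genes (3.42%). The NF-kB motif GGGANNTTCC, or GGAANNTCCC on the other strand, was in 2 members (4.17%) and in 1.57% of all promoters. Among tested members 1 held it (2.56%), against 1.58% of promoters of tested genes. Another motif searched, TTCNNNGAA (GAS), was in 6 members (12.5%) and in 8.85% of all promoters. Among tested members 5 held GAS (12.8%), against 7.34% of promoters of tested genes. A match describes letters, not binding, and a gene without a match may hold the element outside this window or in another spelling.

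Stretches of 7 promoters are given, of members the results turn on. Usp18, Isg15, Ifit1, Rtp4 and Trim30a had lower mean levels with zinc, while Zbp1 and Bst2 hold the same motif and, outside zinc 3, had values close to the water group. Each sequence reads 5′ to 3′ along the strand of its gene, and capitals mark the matches to the motif or its reverse. The positions are chr6:121222776-121222845 (plus strand) for Usp18, chr4:156285304-156285371 (minus) for Isg15, chr19:34618174-34618243 (plus) for Ifit1, chr16:23428597-23428645 (plus) for Rtp4, chr7:104114408-104114466 (minus) for Trim30a, chr2:173060725-173060791 (minus) for Zbp1 and chr8:71990201-71990270 (minus) for Bst2, all in GRCm39.
Usp18: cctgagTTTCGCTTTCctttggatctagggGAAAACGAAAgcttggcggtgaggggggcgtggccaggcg
Isg15: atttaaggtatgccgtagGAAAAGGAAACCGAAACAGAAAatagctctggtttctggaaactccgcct
Ifit1: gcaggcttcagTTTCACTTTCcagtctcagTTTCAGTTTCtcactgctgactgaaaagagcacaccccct
Rtp4: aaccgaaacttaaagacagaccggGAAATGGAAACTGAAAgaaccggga
Trim30a: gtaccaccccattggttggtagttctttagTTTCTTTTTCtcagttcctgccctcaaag
Zbp1: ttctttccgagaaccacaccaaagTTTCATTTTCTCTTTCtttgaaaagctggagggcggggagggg
Bst2: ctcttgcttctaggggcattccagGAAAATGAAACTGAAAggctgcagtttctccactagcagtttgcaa

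Isg15 held 3 matches that overlap into 1 run, with first bases 50, 44 and 38 bases before its start. Zbp1 and Rtp4 held 4 matches each in the whole window, the most of any member, and Usp18, Ifit1 and Bst2 held 2 each. A pair of further stretches is shown because the genes they belong to share part of their transcript sequence. Ifit3 and Ifit3b are neighbouring copies, and the 70 bases around 1 of their matches were identical, at chr19:34560777-34560846 and chr19:34585173-34585242 (both plus strand).
Ifit3: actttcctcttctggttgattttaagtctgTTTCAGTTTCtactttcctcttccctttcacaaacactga
Ifit3b: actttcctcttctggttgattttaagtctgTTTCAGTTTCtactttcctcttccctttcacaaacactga

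**Figure D1:**
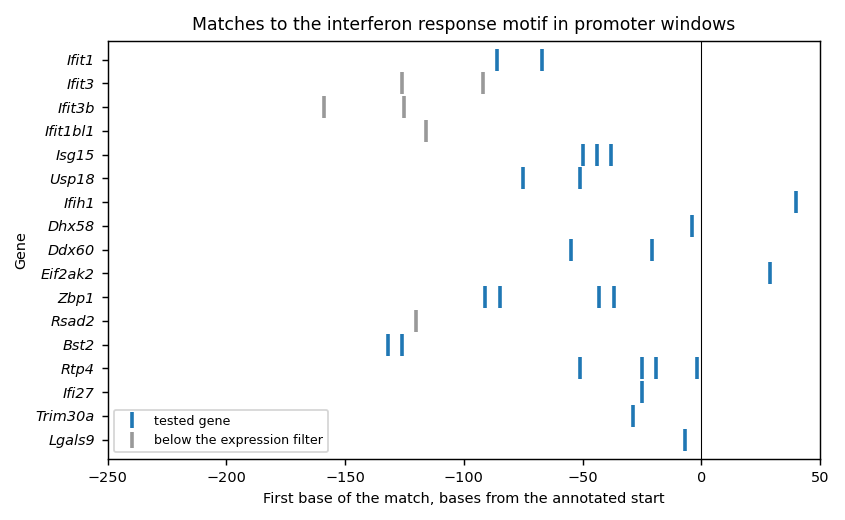
Positions of the matches to GAAANNGAAA (either strand) in the promoter windows of the 17 members that hold at least 1, with distance from the annotated start in bases on the horizontal axis and a tick for each match. Blue ticks are the 13 tested genes and grey ticks the 4 below the expression filter, and only the matches of Ifih1 and Eif2ak2 begin after the start, at 40 and 29 bases.

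Libraries held 10623658 to 15101627 counts. Levels are given as CPM on library sizes that were adjusted with TMM factors, and where a library has no count the gene may still stand at up to 3 counts, which is 0.179 to 0.369 CPM by library. The PC label was met by its markers: the 12 listed PC genes, such as the defensin Defa24 and the lysozyme Lyz1, summed to between 441284 and 781982 CPM. Of 14 leukocyte markers 7 had 0 counts in all libraries, and Ptprc, the defining pan-leukocyte gene, had 2 counts in all. The leukocyte sum, nearly all from Lyz2, was 13.5 to 26.1 CPM with water and 13.4 to 27.6 CPM with zinc. Of 6 stromal and endothelial markers 4 were at 0. Zinc 3 stands apart from the other 7 libraries, so each result is given with all 8 libraries and with 7, without zinc 3. In that library 11 of 12 enterocyte markers, 6 of 7 crypt stem cell markers, 3 of 8 goblet cell markers and 3 of 6 enteroendocrine and tuft cell markers were higher than in every other library. The share of all genes that were highest in zinc 3 was not computed, so these counts stand without a background. Over the tested genes of each list its mean log2 CPM was 5.18 for enterocyte markers (1.42 to 3.21 in the others), 6.81 for crypt stem cell markers (4.93 to 6.20), 9.17 for goblet cell markers (7.85 to 8.56) and 2.17 for enteroendocrine and tuft cell markers (-0.93 to 1.12). Summed, the enterocyte markers stood at 765 CPM against 317 to 437 CPM and the enteroendocrine and tuft cell markers at 12.8 against 0.862 to 10.9 CPM. The stem cell sum, 1057 against 424 to 1074 CPM, and the goblet cell sum, 10671 against 10409 to 15397 CPM, lay within the range of the others, while the stem cell gene Lgr5 (52.3 against 7.02 to 22.6 CPM) and the goblet cell gene Zg16 (109 against 6.09 to 48.1 CPM) did not. Cell markers were uneven between the groups outside zinc 3 as well. The stem cell sum was 424 to 606 CPM with water and 1074, 776 and 495 CPM in zinc 1, 2 and 4. Without zinc 3, 5 of 6 tested stem cell markers were higher with zinc and 1 lower (median log2 fold change 0.56). Of 8 goblet cell markers 4 were higher and 4 lower (median 0.18). Of the 12 PC markers 3 were higher and 9 lower (median -0.19). With all 8 libraries 2 of the PC markers were higher and 10 lower (median -0.27). In each of these lists 0 genes passed. Most TNF targets were low in zinc 3 too, although its label gives TNF. Of 15 TNF and NF-kB targets, 14 were there under 50% of the median of the other 7 libraries, where 11.0% of all tested genes were. Icam1 had no count against 87.1 to 149 CPM, and Nfkbia was at 28.6 against 434 to 534 CPM. Tnfaip2 was instead highest in zinc 3, at 6.03 against 1.04 to 3.76 CPM. Zinc 3 is thus only the library labelled as zinc with TNF, and its response to TNF was not tested, as no TNF-free library was analysed. The part of these cells, and of the low TNF targets, in the results below was not tested. In bulk RNA, fewer cells expressing a gene and less of its RNA in each cell cannot be told apart.

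Per length of exon, the members ranged from strongly expressed to barely detected. For this comparison between genes their levels are given as FPKM, which is CPM per kilobase of exon. The median over the 39 tested members was 3.15 FPKM, against 1.92 FPKM over all tested genes, and 25 of the 39 lay above that. Lgals9, which encodes the secreted lectin galectin-9, led with a mean of 196 FPKM and ran from 183 to 240 FPKM in the 7 libraries without zinc 3, above the range of every other member. Next came Ifitm3 at 43.5 FPKM, Trim25 at 27.7, Lgals3bp at 22.6, Shisa5 at 16.1 and Parp14 at 12.7. The ranges of neighbours in this order overlapped after Lgals9: Ifitm3 ran from 25.6 to 76.7 FPKM over those 7 libraries, Trim25 from 24.1 to 33.9 and Lgals3bp from 19.9 to 27.8. At the other end, 17 of the 48 members were under 1 FPKM. The lowest of the tested genes were Sp100 at 0.149 FPKM, Phf11d at 0.204, Ifit1 at 0.206, Trim30a at 0.233 and Ddx60 at 0.255. The Ifit, Mx and Rsad2 genes, which are widely used to read out an interferon response, were thus among the lowest in these PCs.

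**Figure D2:**
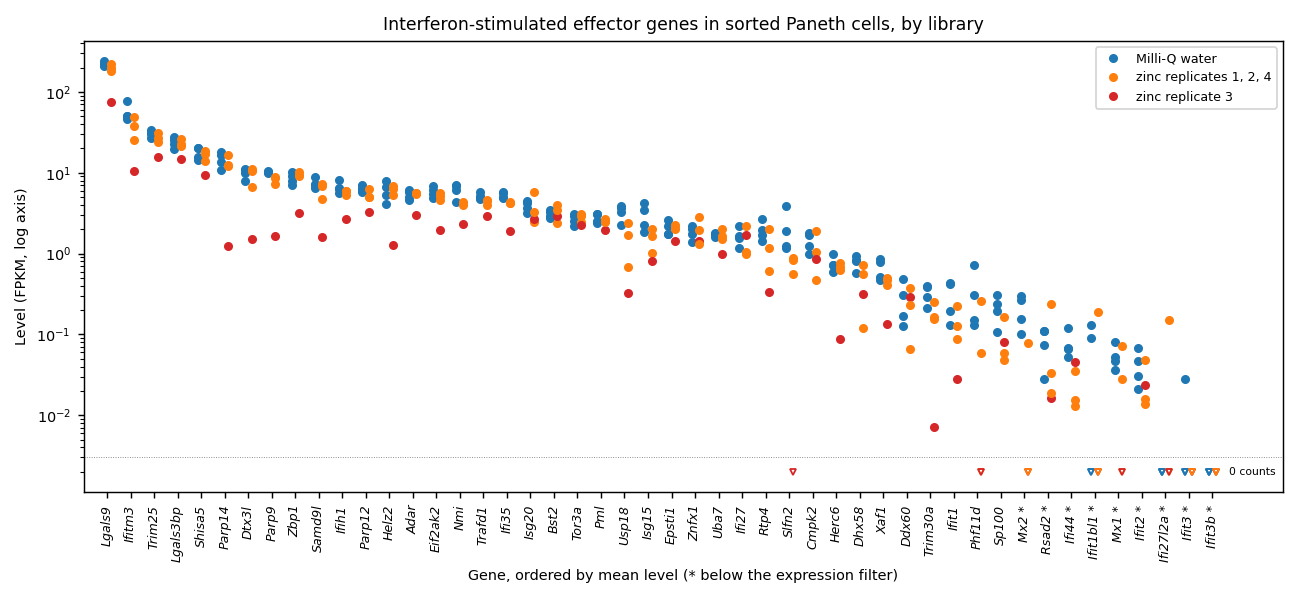
Level of each member (FPKM, log axis) in each library, ordered by mean level, for the 4 water libraries (blue), zinc 1, 2 and 4 (orange) and zinc 3 (red), with counts of 0 as open triangles under the dotted line. Lgals9 stands at the left at 183 to 240 FPKM outside zinc 3, most red points lie under the other 7, and the 9 genes below the expression filter carry an asterisk.

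Zinc was compared with water gene by gene, and no member passed the test. By the quasi-likelihood test of edgeR, 0 of the 39 tested members had an adjusted p under 0.05, with all 8 libraries (smallest 0.485) or with 7 (smallest 0.500). Neither did any other gene, so the background of calls was 0.0% of 10707 and of 10755 genes. At an unadjusted p under 0.05 there were 9 members with all 8 libraries and 8 with 7, every one of them lower with zinc. Over all genes tested, such a p was found in 3.78% and 3.72% in the lower direction and in 6.42% and 4.34% in the higher. DESeq2 called no member either, where it called 0.0213% and 0.0603% of genes, with 9 of 47 members at an unadjusted p under 0.05 in each set of libraries, all lower, where 2.53% and 2.34% of all genes were.

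Most members had lower fitted values with zinc. With all 8 libraries 37 of 39 had a log2 fold change (zinc over water) below 0, where 49.2% of all genes did. Their median was -0.42, against 0.0062 over all genes. Without zinc 3 the count was 31 of 39, where 49.4% of all genes lay below 0, and the median was -0.22, against 0.0042 over all genes. Leaving out water 2 as well moved the latter median to -0.13. The groups did not overlap at 4 tested members, Slfn2, Parp9, Ifi35 and Trafd1, with every zinc library under every water library. Over all genes this held, in that direction, for 3.12% with all 8 libraries and 3.99% with 7. With 1 of the 8 libraries left out the count ran from 4 to 10 of 39. It was 10 without water 4 (4.81% of all genes) or zinc 1 (4.4%) and 8 without zinc 4 (8.62%). With 1 of the 7 left out it was 10 without water 4 (6.13%), 11 without zinc 1 (6.84%) and 8 without zinc 4 (11.0%). None of the 39 had every zinc library above every water library, as 2.76% of all genes did with all 8 libraries and 3.9% with 7.

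The mean log2 CPM over the 39 tested members was 3.83, 4.16, 4.09 and 3.81 in water 1 to 4 and 3.82, 3.46, 2.41 and 3.57 in zinc 1 to 4. Zinc 1 thus lay within the water group, zinc 2 and 4 lay a little under it, and zinc 3 lay furthest below. Within the 7 libraries, water 2 was the highest for 19 of the 39 members and water 3 for 10, where 9.58% and 22.8% of all genes were highest there. Zinc 2 was the lowest for 13 and zinc 4 for 9, where 10.3% and 15.3% of all genes were lowest there. Below the mean of the water group lay 24 members in zinc 1, 34 in zinc 2 and 31 in zinc 4, where 51.3%, 51.6% and 52.4% of all genes did.

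**Figure D3:**
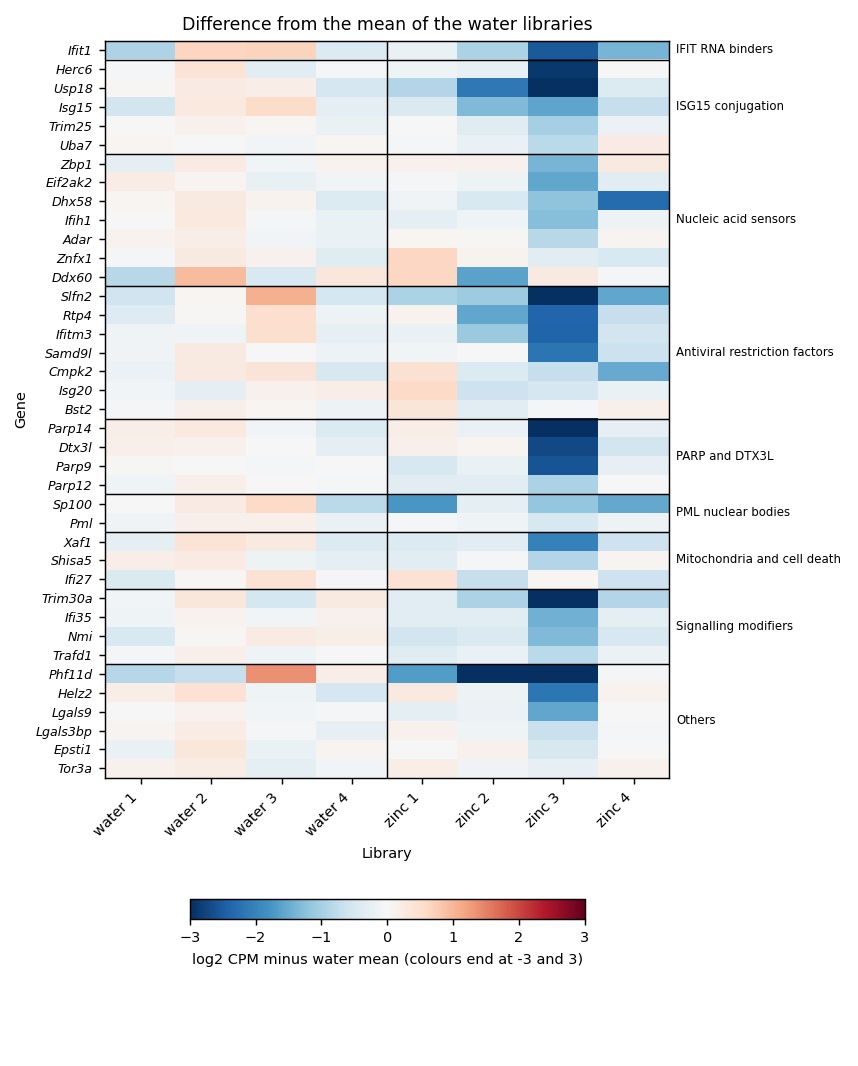
Difference of each tested member's log2 CPM from the mean of the water libraries, by gene (rows, grouped by role) and library (columns), blue for lower and red for higher, with colours ending at -3 and 3. The column of zinc 3 is the darkest, zinc 2 and 4 are mostly pale blue, and Slfn2, Usp18, Parp14, Trim30a and Phf11d reach the end of the scale in zinc 3.

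The ISG15 system attaches the small ubiquitin-like protein ISG15 to other proteins, and all 5 of its listed genes were tested. Usp18 (ENSMUSG00000030107, chr6:121222848-121247877, plus strand) encodes the protease that takes ISG15 off again and that also restrains signalling by the type I interferon receptor. Usp18 was at 10.7, 12.4, 12.1 and 7.28 CPM in water 1 to 4 and at 5.53, 2.22, 1.05 and 7.74 CPM in zinc 1 to 4. Only zinc 4 reached into the water range, just above water 4. The log2 fold change was -1.37 (SE 0.485, edgeR adjusted p 0.485) and, without zinc 3, -1.05 (SE 0.328, edgeR adjusted p 0.500). Among the members it had the smallest p with 7 libraries, 0.00725 before adjustment by edgeR. When the expression filter was left off in those 7 libraries, Usp18 passed at an adjusted p of 0.000589, together with Ifitm3 and Slfn2, as 3 of the 80 genes called lower among 18228 tested (0.439%), with 176 genes called in either direction (0.966%). With all 8 libraries no gene passed without the filter, and the cause of this difference was not tested.

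Isg15 itself (ENSMUSG00000035692, chr4:156283883-156285303, minus strand) was at 1.44, 2.74, 3.32 and 1.76 CPM in water 1 to 4 and at 1.59, 0.789, 0.632 and 1.29 CPM in zinc 1 to 4. Zinc 1 lay inside the water range and the other 3 zinc libraries under it. Its log2 fold change was -1.10 (SE 0.415) with all 8 libraries and -0.91 (SE 0.421) with 7, on 169 counts in all. The enzymes of the pathway were more abundant and closer to water. Trim25, a ubiquitin ligase that acts with the RNA sensor RIG-I, was at 178 ± 17.4 CPM on water and 158 ± 19.5 CPM in zinc 1, 2 and 4 (SD, n = 4 and 3), with 89.2 CPM in zinc 3. Herc6, which is the main ISG15 ligase of mice, was at 7.92 ± 1.83 and 7.18 ± 0.665 CPM in the same groups and at 0.912 CPM in zinc 3. Its log2 fold change was -0.51 with zinc 3 and -0.15 without. Uba7, the enzyme that activates ISG15, had values of -0.15 and 0.02. Among these genes, then, the tag and the protease that removes it had the lower mean levels outside zinc 3, and the conjugating enzymes lay near the water mean. The 2 sides were not tested against each other. Herc6 shares 18.3% of its 75-base words with other genes, Gm45193 more than any, so part of its count may belong to those.

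IFIT proteins bind foreign RNA by its 5′ end, and of their 5 genes, which lie side by side on chromosome 19, only Ifit1 could be tested. Ifit1 (ENSMUSG00000034459, chr19:34618271-34632174, plus strand) was at 0.957, 3.16, 3.20 and 1.44 CPM in water 1 to 4 and at 1.69, 0.932, 0.211 and 0.645 CPM in zinc 1 to 4. Water 1 lay as low as zinc 2, so the groups overlapped. The log2 fold change was -1.34 (SE 0.593) with all 8 libraries and -1.0 (SE 0.514) with 7. Zinc 3 held 3 counts of Ifit1, 12.5% of the pooled level of the other 7 (95% counting interval 2.55 to 37.2%). Ifit2 had 21 counts over the 8 libraries, between 0.0806 and 0.400 CPM. Ifit1bl1, a relative of Ifit1, had 14 counts, all in water 1, water 2 and zinc 2. Ifit3 had 1 count and Ifit3b had 0. These last 2 share 36.1% and 36.9% of their 75-base words with each other, so a read from either may have been dropped or given to its copy, depending on a counting rule that the sources used here do not give.

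Of the 11 antiviral restriction factors, 7 were tested. Ifitm3, a membrane protein that blocks the entry of viruses (ENSMUSG00000025492, chr7:140589499-140591282, minus strand), was at 65.5, 65.1, 98.2 and 60.0 CPM in water 1 to 4 and at 62.2, 32.8, 13.3 and 48.2 CPM in zinc 1 to 4. Zinc 1 again lay among the water libraries, and water 3 stood above the other 3. The log2 fold change was -0.88 (SE 0.380) and, without zinc 3, -0.59 (SE 0.213, edgeR adjusted p 0.563). Slfn2, a Schlafen family member needed for the quiescence of immune cells (ENSMUSG00000072620, chr11:82955609-82961504, plus strand), was at 2.32, 3.75, 7.75 and 2.48 CPM in water 1 to 4, at 1.78, 1.65 and 1.13 CPM in zinc 1, 2 and 4, and had 0 counts in zinc 3. Each zinc library lay under each water library. Against the floor of 3 counts, zinc 3 was at least 13.2-fold lower than the pooled other 7. The log2 fold change over the 7 libraries was -1.37 (SE 0.443, edgeR adjusted p 0.512).

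Rtp4, a receptor chaperone that also restricts flaviviruses, was at 6.09, 8.22, 11.3 and 7.12 CPM with water and at 8.62, 2.58, 1.40 and 4.92 CPM with zinc, in library order. Zinc 1 lay above 3 of the 4 water libraries. Its log2 fold changes were -0.91 with all 8 libraries and -0.61 with 7. Samd9l, a translation inhibitor, gave -0.53 and -0.23, and was at 9.40 CPM in zinc 3 against 27.5 to 51.4 CPM elsewhere. Cmpk2, a mitochondrial nucleotide kinase, gave -0.42 and -0.32, and its lowest library was zinc 4, at 2.02 CPM, not zinc 3, at 3.65 CPM. Isg20, an exonuclease, gave -0.13 and -0.01. Bst2, or tetherin, which holds budding virus at the membrane, was at 3.56, 4.17, 3.94 and 3.36 CPM with water and at 4.87, 2.94, 3.58 and 4.19 CPM with zinc. The groups overlapped throughout, zinc 3 included, and the log2 fold changes were 0.05 (SE 0.233) and 0.09 (SE 0.253). That direction turned under other settings, to -0.08 with limma-voom and to -0.07 without zinc 1. The remaining 4 were below the filter. Mx2, a dynamin-like GTPase, had 45 counts, at 0.957, 1.07, 0.369 and 0.560 CPM in water 1 to 4, at 0.281 CPM in zinc 1 and at 0 counts in zinc 2, 3 and 4. Its relative Mx1 had 14 counts in all. Ifi44, a gene of the microtubular aggregate family, had 32 counts, 0.320 to 0.738 CPM with water and 0.0806 to 0.281 CPM with zinc. For Mx2 and Ifi44 the groups did not overlap either, at levels near the floor. The shares of such genes given above cover tested genes only, and none was computed for genes below the filter. Rsad2, which encodes viperin, had 35 counts with its highest value in zinc 1, 1.03 CPM.

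All 7 sensors of foreign nucleic acid were tested, and 0 passed. Ifih1, which encodes the RNA sensor MDA5, was at 59.4 ± 9.33 CPM with water and 51.5 ± 3.25 CPM in zinc 1, 2 and 4 (SD, n = 4 and 3), with 24.3 CPM in zinc 3. The log2 fold changes were -0.41 (SE 0.238) and, without zinc 3, -0.20 (SE 0.139). Eif2ak2, or PKR, the kinase that stops translation on double-stranded RNA, was at 31.7 ± 4.40 and 27.8 ± 2.78 CPM and at 10.5 CPM in zinc 3, with values of -0.44 and -0.19. Adar, the enzyme that edits double-stranded RNA, was at 44.1 ± 5.67 and 45.6 ± 0.668 CPM and at 24.6 CPM in zinc 3. Its values were -0.13 and 0.05, so its direction rests on zinc 3.

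Zbp1, a sensor of Z-form nucleic acid that can trigger necroptosis (ENSMUSG00000027514, chr2:173033815-173060724, minus strand), was at 30.4, 43.4, 34.1 and 39.1 CPM in water 1 to 4 and at 39.5, 39.8, 13.7 and 43.9 CPM in zinc 1 to 4. Outside zinc 3 the zinc libraries lay in the upper part of the water range, with zinc 4 just above it. The log2 fold changes were -0.10 (SE 0.304) and, without zinc 3, 0.16 (SE 0.141), the highest of the 39 members. By limma-voom with all 8 libraries the value was 0.10. Znfx1, a helicase-like RNA binder, gave 0.03 and 0.14. Znfx1 ran from 11.6 to 18.3 CPM with water and from 10.9 CPM in zinc 4 to 23.3 CPM in zinc 1, and without zinc 1 the value was -0.23. Dhx58, or LGP2, a partner of MDA5, gave -0.89 (SE 0.461) and -0.77 (SE 0.465), with its lowest value in zinc 4 at 0.403 CPM. Ddx60, another helicase, ran from 0.574 CPM in zinc 2 to 4.17 CPM in water 2, and gave -0.19 and -0.32. Without water 2 it was 0.26.

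**Figure D4:**
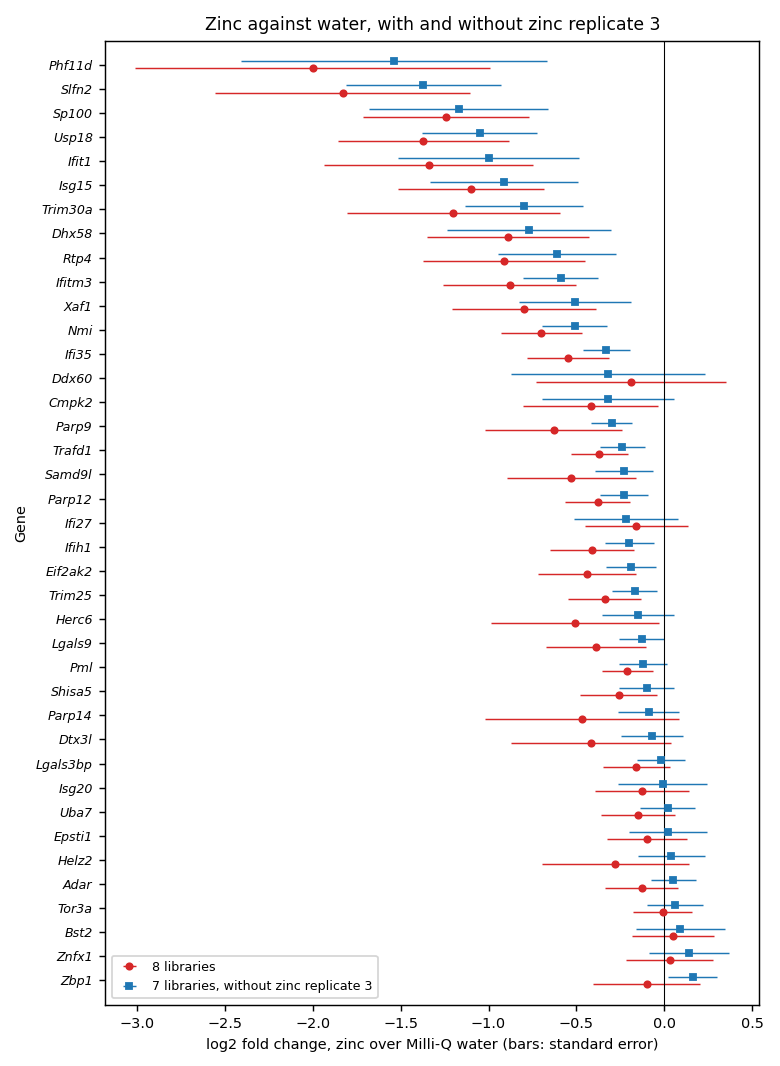
Log2 fold change of zinc over water for the 39 tested members by edgeR, with all 8 libraries (red circles) and without zinc replicate 3 (blue squares), with bars of 1 standard error. All but 2 red circles lie left of 0, most blue squares lie closer to 0 than their red circles, and 8 blue squares, from Uba7 at 0.02 to Zbp1 at 0.16, lie right of it.

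PARP9 and DTX3L form a complex that marks histones and viral proteins with ubiquitin, and their genes lie head to head on chromosome 16, with starts 681 bases apart and overlapping transcripts. Parp9 (ENSMUSG00000022906, chr16:35758840-35792980, plus strand) was at 51.3 ± 1.10 CPM in the 4 water libraries (SD) and at 36.9, 44.2, 8.35 and 43.3 CPM in zinc 1 to 4. The water libraries were nearly level and each zinc library lay under them. Its log2 fold changes were -0.63 (SE 0.391) and, without zinc 3, -0.30 (SE 0.118, edgeR adjusted p 0.588), where the SE was the smallest of the 39 members. Dtx3l (chr16:35746881-35759521, minus strand) was at 63.3, 62.4, 56.7 and 45.9 CPM in water 1 to 4 and at 62.9, 60.5, 8.56 and 38.7 CPM in zinc 1 to 4. Zinc 1 and 2 were at the level of water, so Dtx3l did not separate the groups as its neighbour did. The CPM ratio of Dtx3l to Parp9 was 1.20, 1.22, 1.13 and 0.895 in water 1 to 4 and 1.70, 1.37, 1.03 and 0.894 in zinc 1 to 4. In zinc 3, then, the 2 genes were low together, at a ratio within the water range. Parp14, a mono-ADP-ribosyltransferase further along the same stretch of chromosome 16, was at 159, 171, 132 and 104 CPM in water 1 to 4 and at 161, 120.0, 11.9 and 117 CPM in zinc 1 to 4. It gave -0.47 (SE 0.553) and -0.09 (SE 0.175). Parp12, of the same enzyme class but on chromosome 6, gave -0.38 and -0.23 and was at 14.3 CPM in zinc 3 against 21.6 to 30.7 CPM elsewhere. Since library strand was kept but the sources used here give no strand setting for the counting, reads in the overlap of Parp9 and Dtx3l cannot be assigned with certainty.

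The signalling modifiers were the group with the most members at an unadjusted p under 0.05 by edgeR. These were 3 of 4 with all 8 libraries (Nmi, Ifi35 and Trafd1) and 3 of 4 with 7 (Nmi, Ifi35 and Trim30a). Over all tested genes 3.78% and 3.72% had such a p in the lower direction. The smallest edgeR adjusted p of the group was 0.485 and 0.563, so 0 passed. NMI and IFI35 are partner proteins that bind STAT and other signalling factors. Ifi35 (ENSMUSG00000010358, chr11:101339221-101352693, plus strand) was at 18.5, 21.7, 19.1 and 22.3 CPM in water 1 to 4 and at 16.1, 16.0, 7.37 and 16.5 CPM in zinc 1 to 4. Zinc 1, 2 and 4 were nearly level with each other and lay under every water library. Its values were -0.55 (SE 0.233) and -0.33 (SE 0.133, edgeR adjusted p 0.588). Nmi (ENSMUSG00000026946, chr2:51838450-51863506, minus strand) was at 10.3, 14.6, 16.9 and 16.1 CPM in water 1 to 4 and at 9.56, 10.4, 5.54 and 10.1 CPM in zinc 1 to 4. Only water 1 lay among the zinc libraries. Nmi had the smallest p of the members with all 8 libraries, 0.0123 before adjustment by edgeR, and its values were -0.70 (SE 0.231, edgeR adjusted p 0.485) and -0.51 (SE 0.184).

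Trafd1, a brake on Toll-like receptor signalling, was at 29.6, 34.6, 28.3 and 31.4 CPM in water 1 to 4 and at 24.1, 27.1, 17.4 and 27.5 CPM in zinc 1 to 4. The highest zinc library, at 27.5 CPM, lay just under the lowest water library, at 28.3 CPM. It gave -0.37 (SE 0.163) and -0.24 (SE 0.127). Trim30a, which restrains NF-kB signalling, was at 2.87, 3.93, 2.09 and 3.76 CPM in water 1 to 4 and at 2.44, 1.51, 0.0702 and 1.61 CPM in zinc 1 to 4. Zinc 3 held 1 count, 2.61% of the pooled level of the other 7 libraries (95% counting interval 0.0659 to 14.7%). Its values were -1.20 (SE 0.607) and -0.80 (SE 0.335), and 5.43% of its 75-base words are shared with other genes, Trim30d more than any.

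PML and SP100 build the nuclear bodies that hold viral genomes in check. Pml was at 19.6 ± 2.37 CPM in the water group and 18.0 ± 0.650 CPM in zinc 1, 2 and 4 (SD, n = 4 and 3), with 14.0 CPM in zinc 3, and gave -0.21 and -0.12. Sp100 was at 1.91, 2.32, 2.95 and 1.04 CPM in water 1 to 4 and at 0.469, 1.58, 0.772 and 0.565 CPM in zinc 1 to 4. Here zinc 3 was not the lowest and zinc 2 lay in the water range. The values of Sp100 were -1.24 (SE 0.472) and -1.17 (SE 0.510), so this difference was of the same size without zinc 3, on 149 counts in all.

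Of the genes tied to mitochondria and cell death 3 of 4 were tested. Xaf1, an antagonist of the apoptosis inhibitor XIAP, gave -0.80 (SE 0.409) and -0.51 (SE 0.318), at 3.13 ± 0.916 CPM with water and 2.18 ± 0.223 CPM in zinc 1, 2 and 4 (SD, n = 4 and 3). Shisa5, a p53 target of the endoplasmic reticulum, gave -0.26 and -0.10. Ifi27, a small mitochondrial protein, gave -0.16 and -0.22 and was at 7.51 CPM in zinc 3, 107% of the median of the other 7. Its neighbour on the opposite strand, Ifi27l2a, had 2 counts, both in zinc 4, and the 2 genes overlap.

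Among the 6 other members Lgals9 was at 511, 544, 476 and 484 CPM in water 1 to 4 and at 415, 448, 169 and 510.0 CPM in zinc 1 to 4. Zinc 4 lay within the water range and zinc 1 and 2 under it. Lgals9 gave -0.39 (SE 0.286) and -0.13 (SE 0.127). Helz2, a helicase that acts as a nuclear receptor coactivator, was at 79.7, 93.4, 62.9 and 49.1 CPM in water 1 to 4 and at 82.7, 62.5, 15.3 and 74.8 CPM in zinc 1 to 4. It gave -0.28 and 0.04, and outside zinc 3 the zinc libraries lay inside the spread of the water libraries. Lgals3bp, a secreted glycoprotein, gave -0.16 and -0.02, Epsti1 -0.10 and 0.02, and the torsin ATPase Tor3a -0.01 and 0.06. Phf11d, a PHD-finger protein, gave the most negative values of all members, -2.0 (SE 1.01) and -1.54 (SE 0.870), on 85 counts. It was at 0.615, 0.715, 3.45 and 1.44 CPM in water 1 to 4, had 0 counts in zinc 2 and 3, and was at 0.281 CPM in zinc 1 and 1.21 CPM in zinc 4. Water 3 stood above the other 3 water libraries.

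Zinc 3 was the lowest of the 8 libraries for 29 of the 39 tested members, where 30.0% of all tested genes were lowest there. For 22 of the 39 it was under 50% of the median of the other 7, where 11.0% of all genes were. The members' values in zinc 3 ran from 0% to 125% of that median, and their middle was 43.2%, against 102% over all tested genes. Parp14 at 9.01%, Herc6 at 12.2%, Usp18 at 13.6%, Dtx3l at 14.2% and Parp9 at 16.7% were among the lowest. Bst2 at 90.9%, Ifi27 at 107% and Ddx60 at 125% were the highest. Each role thus held at least 1 member under 50% in zinc 3. Members with and without the ISRE letters overlapped in this measure: the 13 tested members with a match had a median of 35.4% (range 2.88 to 125%) and the 26 without one 52.0% (range 0 to 77.4%). Their median log2 fold changes were -0.44 and -0.40 with all 8 libraries, and -0.32 and -0.16 with 7.

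Within the 7 other libraries, members differed in how closely they followed the rest. The Pearson correlation of a member's log2 CPM with the mean of the other members, given as a description over 7 libraries that share group and depth differences, was 0.94 for Isg15, 0.91 for Trim25, 0.88 for Ifit1 and 0.85 for Rtp4. It was 0.05 for Adar, 0.02 for Epsti1, -0.12 for Uba7 and -0.21 for Zbp1. Outside the list, the genes most like the members' mean over the same 7 libraries were Gm5431 (0.968), Oasl1 (0.967), Agmo (0.962), Oas3 (0.955), Tmub1 (0.951), Tap1 (0.942), Cd47 (0.934), Fam241a (0.933), Oasl2 (0.929) and Intu (0.924). They are the 10 highest of all other genes tested, each compared on 7 values.

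The rest of the pathway was read from lists in the order of the signal. None of 9 listed interferon genes, Ifnb1 and Ifng among them, had a count in any library, which allows up to 0.369 CPM in water 3, the library with the smallest scaled size. All 9 receptors and kinases were tested and 0 passed. Their median log2 fold change was -0.26 with all 8 libraries and -0.01 with 7, and Ifnar1, a chain of the type I receptor, gave -0.26 and -0.01. All 12 STAT, IRF and SOCS regulators were below 0 with all 8 libraries (median -0.39) and 9 of 12 with 7 (median -0.22), with 0 past the threshold. Irf9, the DNA-binding part of ISGF3, had a mean of 23.0 ± 2.51 CPM on water and one of 13.5 ± 4.20 CPM on zinc (SD over 4 mice), and gave -0.77 (SE 0.229) and -0.56 (SE 0.138, edgeR adjusted p 0.500). Irf1, which TNF induces, gave -0.87 and -0.55.

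Among the other interferon targets, 6 of the 8 OAS genes were tested, all 6 of them below 0 in both sets of libraries, with medians of -1.01 and -0.86. At 5 of them, in both sets, every zinc library lay under every water library, where 3.12% and 3.99% of all tested genes did so. Of the 14 GBP and IRG GTPases 8 were tested with all 8 libraries and 9 with 7, all below 0, with medians of -0.74 and -0.39. Of 15 TNF and NF-kB targets, 15 were below 0 with all 8 libraries (median -0.42) and 9 with 7 (median -0.11). No gene of these 3 lists passed the test in either direction. In zinc 3 the mean log2 CPM of the GTPases was 0.14, against 3.78 to 4.50 in the other libraries. That of the TNF targets was 1.46 against 5.12 to 5.82, and that of the effector genes 2.41 against 3.46 to 4.16. The effector genes were thus less far below the other libraries in zinc 3 than either of those lists, by these means and without a test. The regulators were at 3.20 against 4.86 to 5.34, the OAS genes at 0.28 against 1.06 to 2.46, and the receptors and kinases at 4.22 against 5.21 to 5.40. Neither the OAS genes nor the receptors and kinases stood further below their next lowest library than the effector genes did.

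**Figure D5:**
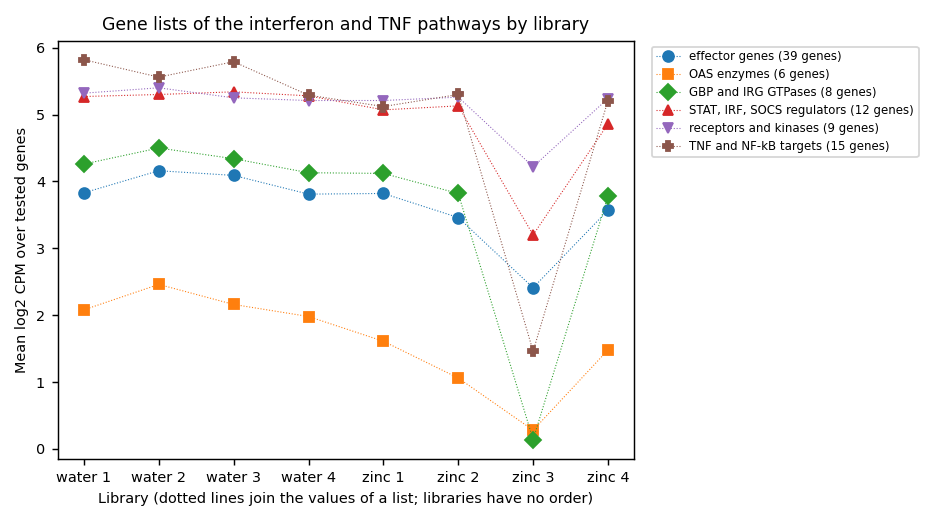
Mean log2 CPM over the tested genes of each list (vertical axis) in each of the 8 libraries (horizontal axis), for the effector genes and for 5 other lists of the interferon and TNF pathways. In zinc 3 the effector genes stand at 2.41, the GTPases at 0.14 and the TNF targets at 1.46, each below all their other libraries, and the OAS enzymes are lower in all 4 zinc libraries (0.28 to 1.61) than in the 4 water libraries (1.98 to 2.46).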

How the data were processed

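Poly(A) RNA of FACS-sorted PCs was sequenced with a stranded kit, 1 library for each of 4 mice on Milli-Q water and 4 on zinc water. The authors deposited raw read counts per Ensembl gene, and every value here was computed from those counts. Per the submitters' processing notes, FastQC 0.12.0, STAR 2.7.10a, DESeq2 and the mm39 genome (GRCm39) were used, while the counter, its annotation, its strand setting and its rule for reads with several matches are not given in the sources used here. Identifiers were matched to GENCODE M39 (54749 matched, 665 not, holding 0.00443% of counts).

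Groups were taken from the labels. Zinc was compared with water with edgeR 4.0.16 in R 4.3.3, by its quasi-likelihood test (TMM scaling, default expression filter, Benjamini-Hochberg adjustment over all genes, threshold 0.05), once with 8 libraries (10707 genes, 99.89% of counts) and once without zinc replicate 3 (10755 genes, 99.91%). The study names DESeq2 for its genome-wide expression work, and it was run here as an alternative. Log2 fold changes are zinc over water with a prior count of 0.125, and their SE was derived from the F statistic. CPM values use TMM-scaled library sizes from the 8 libraries, log2 CPM adds a prior count of 2, and FPKM divides CPM by merged exon length. Intervals are 95% exact binomial intervals for the share of a gene's counts that lay in zinc 3, turned into a ratio. Like the floor of 3 counts, they hold for counting error alone, as the protocol names no molecular identifiers. A member's shared sequence is the share of 75-base words of its canonical transcript found in other genes. Promoter and motif letters were read from GRCm39.

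The members and all gene lists were chosen with earlier results of these data known. All 48 members were described, with values for a fixed set of 16, the 10 of smallest p in each comparison, those higher with zinc, those below the filter, and the 5 highest and 5 lowest by FPKM. No set test was run. Alternatives were DESeq2 1.42.0 as a test and as size factors, Defa genes removed before scaling, tests without a filter or with a higher one (at least 1 CPM in 4 samples with 100 counts in all), limma 3.58.1 voom with sample weights, a replicate block and each library left out. On simulated counts for 10707 genes, 4 against 4, with 200 changed, edgeR recovered 93.9% of genes changed by 2 and 39.0% of those changed by 1 on the log2 scale, with 6 of 137 calls unchanged. For 10755 genes, 4 against 3, it recovered 94.9% and 61.2%, with 11 of 164 calls unchanged. The simulated counts were drawn gene by gene, so no library stood apart in them as zinc 3 does. Changes under 1 on the log2 scale were not simulated.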

Additional observations from a re-analysis of the deposited data

Results flagged for a closer look

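In each group of 4 libraries, the highest and lowest value of the roles and of 39 members was checked for a gap to the nearest other library above Dixon's 95% critical value as a share of the whole range. Of 98 such groups 8 met this, where chance gives about 4.9 (1 in 20), and 5 of the 8 were low values of zinc replicate 3. In that library the mean log2 CPM of the PARP and DTX3L genes was 3.41 and that of the signalling modifiers 1.85. The single members were Zbp1 at 13.7 CPM, Adar at 24.6 CPM and Ifi35 at 7.37 CPM, each with the other 3 zinc libraries close together. The other 3 lay in other libraries. The nucleic acid sensors had a mean log2 CPM of 4.34 in Milli-Q water replicate 2, above 3.89 to 3.91 in the other water libraries. The PML and SP100 genes were at 2.48 in zinc replicate 2, above 1.78 to 1.85 in the other zinc libraries. Ifitm3 was at 98.2 CPM in Milli-Q water replicate 3, above 60.0 to 65.5 CPM in the other water libraries. The cause of these values was not tested.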

How the results depend on the processing

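Most members differed by less than 1 on the log2 scale with 4 mice a group, and 17 of the 48 were under 1 FPKM, so a missing call does not show that levels were equal. The members' median with all 8 libraries kept its sign in every alternative run and lay between -0.58 and -0.22 with 1 library left out, the ends coming from zinc replicates 1 and 3. It was -0.54 without both Milli-Q water replicates 3 and 4, and -0.27 with limma-voom. With 7 libraries the median ranged from -0.26 to -0.13 with 1 further library left out, lowest in size without Milli-Q water replicate 2, and was -0.31 without both Milli-Q water replicates 3 and 4.

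No member passed under any alternative run except without an expression filter in the 7 libraries, where 3 passed (Usp18 -1.06, adjusted p 0.000589; Ifitm3 -0.60, 0.0137; Slfn2 -1.38, 0.0193, all by edgeR). Counts of genes past the threshold were 4 with DESeq2 over 8 libraries, and over 7 libraries 176 without a filter, 11 with DESeq2 and 1 with limma-voom. With 1 further library left out, the 7-library count ranged from 0 to 54, highest without zinc replicate 4, and was 3 without Milli-Q water replicate 4. The cause was not tested. Members whose groups did not overlap numbered 4 to 10 with 1 of 8 libraries left out (10 without Milli-Q water replicate 4 or zinc replicate 1, 8 without zinc replicate 4) and 4 to 11 with 1 of 7 left out (11 without zinc replicate 1), where 3.99 to 8.62% and 5.36 to 11.0% of all genes tested did.

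Of 506 values of single members under alternatives over 8 libraries, 484 kept direction and side of the threshold, and 29 of 39 members never turned. The 22 that turned lay in 10 members, each with an adjusted p of 0.711 or more. Without zinc replicate 3, Uba7 was 0.02, Zbp1 0.16, Adar 0.05, Epsti1 0.02, Tor3a 0.06 and Helz2 0.04. Without zinc replicate 2, Ddx60 was 0.12, Isg20 0.01, Tor3a 0.02 and Znfx1 -0.00069. Without zinc replicate 1, Znfx1 was -0.23 and Bst2 -0.07. Without Milli-Q water replicate 2, Ddx60 was 0.26, Epsti1 0.02 and Tor3a 0.06, and without Milli-Q water replicate 1 Tor3a was 0.03. Without Milli-Q water replicate 4, Znfx1 was -0.08 and Bst2 -0.0014. The lowest values with 1 library left out were -0.32 for Uba7, -0.48 for Ddx60 and Helz2, -0.25 for Zbp1, -0.21 for Adar, -0.45 for Isg20, -0.18 for Epsti1 and -0.10 for Tor3a. With limma-voom, Zbp1 was 0.10, Epsti1 0.02 and Bst2 -0.08.

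No pairing by replicate number was seen, though such values cannot show that the mice were unpaired. Same-numbered libraries correlated in their deviations from the group means at -0.027, 0.008, 0.025 and 0.027. Differently numbered ones ran from -0.135 to 0.165. With the replicate number as a block, 0 genes passed in either set of libraries, the members' medians were -0.52 and -0.24, and Znfx1 was -0.01. Over 8 libraries 802 genes with the block and 1092 without it had an unadjusted p under 0.05.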
